A study of Mus musculus with 2 samples.

Results

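GABA-A receptor subunits were followed across the arrays of a Gnmt knockout (KO) pool and a wild-type (WT) pool of mouse cerebral cortex. The group holds 7 genes, namely the alpha subunits Gabra2, Gabra3, Gabra4 and Gabra5, the beta subunits Gabrb1 and Gabrb2 and the gamma subunit Gabrg3, out of 18193 named genes on the array. They are represented by 23 probe sets, all those whose only annotated symbol is 1 of the 7 names. Each array carried a single pool of RNA from 3 male mice, 4 weeks old, on a mixed 129/B6 background. Gnmt, the targeted gene, encodes glycine N-methyltransferase, which consumes S-adenosylmethionine. The sources used here do not say which stretch of Gnmt was deleted. The KO group is named from the sample's title, since the genotype entry of that sample reads wild-type. There was 1 array per genotype, hence no replicate, no test and no error between mice for any value.

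GABA-A receptors are chloride channels built as a ring of subunits, usually of the alpha, beta and gamma or delta classes, and they carry most of the fast inhibition in the cortex. GABA binds between alpha and beta subunits, while benzodiazepines bind between alpha and gamma subunits. The alpha subunit largely decides where in the neuron a receptor sits and how it responds to drugs. Most subunit genes lie in clusters, and the 7 genes here fall on chromosome 5 (Gabra2, Gabra4 and Gabrb1), chromosome 7 (Gabra5 and Gabrg3), chromosome 11 (Gabrb2) and the X chromosome (Gabra3).

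The arrays differed in ways that bear on any reading of single genes. Gnmt had 21.5 units in the KO pool and 10 units in the WT pool. Both values are below the floor of 64.2 units that was used for detection, so the targeted gene does not check the labels. Xist, the RNA of the inactive X chromosome, had 2560.3 units in the KO pool and 49.6 units in the WT pool by its brightest probe set, although both pools are labelled male. Among 9 anterior pituitary markers, 3 reached the floor in the KO pool and 7 in the WT pool, with signals summed over brightest probe sets of 775.3 units in the KO pool and 31455 units in the WT pool. The median signal was 124.9 units in the KO array and 92.0 units in the WT array. Cortical identity was present in both pools: all 9 excitatory neuron markers, among them Slc17a7 and Tbr1, and all 12 interneuron markers, among them Sst and Pvalb, were measured on both arrays.

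Start regions of 4 of the genes are shown because these genes lie in pairs in the genome. Gabrg3 and Gabra5, which lie in the same cluster, gave the highest and the lowest ratio of the group by brightest probe sets, a rank that Gabrg3 loses when a probe set with several symbols is counted as its own. Gabra4 and Gabrb1 start 387 bases apart on opposite strands and are transcribed towards each other. Their ratios were -0.35 and 0.25 by brightest probe sets, and 2.02 and 2.13 by the probe set with the highest ratio. The latter choice rests on the values themselves, and the remaining measured probe set of Gabrb1 had 0.34. The sequences are RefSeq promoter windows of build GRCm38.p6, from 250 bases before to 50 bases after the annotated start, read 5′ to 3′ on the gene's own strand. They cover chr7:57387166-57387465 for Gabrg3 (minus strand), chr7:57510010-57510309 for Gabra5 (minus strand), chr5:71658259-71658558 for Gabra4 (minus strand) and chr5:71657671-71657970 for Gabrb1 (plus strand, the first of its listed starts). Capitals mark the GC box, GGGCGG on either strand.
Gabrg3: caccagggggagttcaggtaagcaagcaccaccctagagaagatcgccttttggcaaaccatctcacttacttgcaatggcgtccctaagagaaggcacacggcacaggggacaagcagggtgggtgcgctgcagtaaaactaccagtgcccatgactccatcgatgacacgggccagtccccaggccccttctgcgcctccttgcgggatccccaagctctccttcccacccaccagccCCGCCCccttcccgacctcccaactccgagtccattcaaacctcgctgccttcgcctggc
Gabra5: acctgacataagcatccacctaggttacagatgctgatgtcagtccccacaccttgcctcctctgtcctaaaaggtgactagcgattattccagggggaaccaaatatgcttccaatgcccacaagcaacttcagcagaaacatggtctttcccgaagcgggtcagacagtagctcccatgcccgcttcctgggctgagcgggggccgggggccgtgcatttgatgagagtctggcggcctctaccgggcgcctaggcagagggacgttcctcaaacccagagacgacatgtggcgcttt
Gabra4: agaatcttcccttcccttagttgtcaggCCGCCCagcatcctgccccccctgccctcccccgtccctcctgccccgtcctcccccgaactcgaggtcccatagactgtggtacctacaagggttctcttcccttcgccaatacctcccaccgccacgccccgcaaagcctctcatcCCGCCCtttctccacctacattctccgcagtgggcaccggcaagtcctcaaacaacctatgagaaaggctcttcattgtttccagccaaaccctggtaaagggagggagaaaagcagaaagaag
Gabrb1: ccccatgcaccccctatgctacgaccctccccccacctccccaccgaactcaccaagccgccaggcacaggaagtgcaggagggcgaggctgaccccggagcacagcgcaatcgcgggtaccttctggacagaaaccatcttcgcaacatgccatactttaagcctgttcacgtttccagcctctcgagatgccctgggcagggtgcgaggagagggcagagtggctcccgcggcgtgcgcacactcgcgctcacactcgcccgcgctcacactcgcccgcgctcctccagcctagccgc

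All 7 genes matched the promoter table, with 11 windows in total because Gabra3, Gabrb1 and Gabrb2 have several annotated starts. At least 1 GC box, on either strand, lay in a window of 4 of the 7 genes (Gabra2, Gabra4, Gabrb2 and Gabrg3), in 4 of 11 windows, against 35.7% of all 32851 windows. The letters TATAAA, on either strand, lay in 3 of the 11 windows, both of Gabra3, which overlap, and 1 of Gabrb2, against 13.6% of all windows. The letters TGACG, the core of the cAMP response element, lay in 1 window, of Gabrb2, against 20.8% of all. None of these motif matches overlapped another in the windows shown. The window of Gabra2 was 70.0% G or C and those of Gabra3 were 43.0% and 39.3%, against a median of 52.7% over all windows. The matches describe the letters only.

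Of the 23 probe sets, 17 were at or above the floor on both arrays and are called measured, 3 reached it in the KO pool alone, 0 in the WT pool alone and 3 on neither. Over all non-control probe sets, 63.1% reached the floor on the KO array and 56.9% on the WT array. Each of the 7 genes had at least 1 measured probe set. Ratios are log2 of KO over WT, centred on the median of all measured probe sets, so a positive value means a higher signal in the KO pool. The SD of 1 such ratio between probe sets of the same gene and RNA was 0.58, or 1.49-fold. It was taken from the brightest and second brightest measured probe sets of 5375 genes. Each gene is first given by its brightest probe set, the one with the highest mean log2 signal of both arrays.

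By brightest probe sets, 1 of the 7 genes was at least 1.5-fold higher in the KO pool, 2 were at least 1.5-fold lower and 4 lay within 1.5-fold. Over all 12251 genes with a measured probe set, 12.5% passed 1.5-fold upwards and 18.3% downwards in the KO pool, so these counts are near the background. The median log2 ratio of the 7 genes was -0.35, against -0.06 over all genes. In order from the highest, the ratios were 1.92 for Gabrg3, 0.25 for Gabrb1, -0.18 for Gabra3, -0.35 for Gabra4, -0.43 for Gabrb2, -0.84 for Gabra2 and -0.86 for Gabra5. Between neighbours in that order, the widest gap lay between Gabrg3 and Gabrb1. The probe set SD of 0.58 describes 1 ratio within these arrays, so it is no measure of a gap between genes or of error between pools. The pattern differed when every probe set was read, as the gene-by-gene values show.

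**Figure D1:**
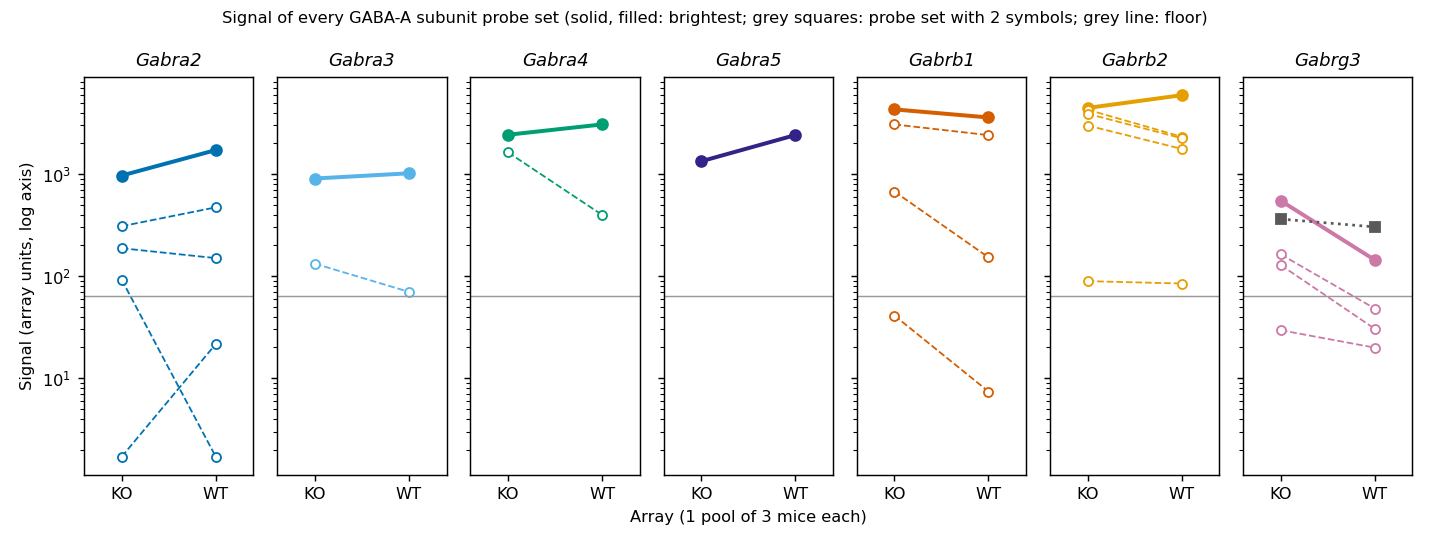
Signal in array units (log axis) of every probe set of the 7 subunit genes in the KO and WT arrays, 1 pool of 3 mice each, with no error bars because there is 1 array per group. Solid lines with filled circles are the brightest probe set of a gene, dashed lines with open circles the others, grey squares the probe set that names Gabrg3 and a second symbol, and the grey horizontal line is the floor of 64.2 units; the brightest lines of Gabra2 and Gabra5 are lower in KO, while 1 dashed line each of Gabra4 and Gabrb1 is far higher in KO.

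Among the alpha subunits, Gabra2 and Gabra5 had lower signals in the KO pool. Gabra5 encodes alpha5, a subunit of mainly extrasynaptic receptors that carry tonic inhibition and are most abundant in the hippocampus. Its single probe set, 1433602_at, gave 1333.3 units in the KO pool and 2407.3 units in the WT pool, a 1.82-fold lower signal (log2 ratio -0.86). Gabra2 encodes alpha2, which is concentrated at synapses on the axon initial segment. Its brightest probe set, 1455444_at, gave 966.3 units in the KO pool and 1716.1 units in the WT pool, 1.79-fold lower (-0.84). The next, 1443865_at, gave 308.0 units in the KO pool and 471.5 units in the WT pool, 1.54-fold lower (-0.63). Both ratios were further from 0 than the probe set SD of 0.58, which does not measure error between pools. The remaining measured probe set, 1421738_at, which was annotated to the RefSeq transcript record, gave 187.5 units in the KO pool and 150.0 units in the WT pool (0.31), so the 3 measured probe sets of Gabra2 did not share a direction; with quantile normalization this one had -0.03.

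Gabra3 and Gabra4 lay near equality by their brightest probe sets and well above it by their other one. Gabra4 encodes alpha4, a subunit of extrasynaptic receptors that are insensitive to classical benzodiazepines, abundant in thalamus and dentate gyrus. Its probe set 1433707_at gave 2424.9 units in the KO pool and 3061.1 units in the WT pool, 1.27-fold lower (-0.35). Its other probe set, 1429330_at, gave 1629.9 units in the KO pool and 397.6 units in the WT pool, 4.07-fold higher (2.02). The probe sets of Gabra4 thus pointed in opposite directions, 2.37 log2 units apart. Gabra3, the X-linked gene of alpha3, gave 903.6 units in the KO pool and 1016.2 units in the WT pool by 1436957_at (-0.18). Its second probe set, 1421263_at, gave 132.2 units in the KO pool and 70.1 units in the WT pool, 1.87-fold higher (0.90). The WT value is close to the floor. With Xist above the floor in the KO pool alone, the 392 measured X-linked genes had a median ratio of -0.13 and the 11828 autosomal genes -0.06; the part of this in the Gabra3 values was not tested.

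The beta subunits form the GABA site together with alpha subunits. Gabrb1 encodes beta1. Its 2 brightest probe sets gave close ratios: 1419719_at had 4295.3 units in the KO pool and 3582.5 units in the WT pool (0.25), and 1435095_at had 3060.4 units in the KO pool and 2404.3 units in the WT pool (0.34). Probe set 1443205_at had 673.6 units in the KO pool and 152.7 units in the WT pool, 4.38-fold higher (2.13), which is the highest ratio of any of the 17 measured probe sets of the group. Probe set 1443834_at was below the floor on both arrays, with 41.1 units in the KO pool and 7.4 units in the WT pool. The 3 measured probe sets of Gabrb1 had ratios above 0, and 1 of them was past 1.5-fold.

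Gabrb2 encodes beta2, the beta subunit of the main synaptic receptor type of the adult cortex. Its brightest probe set, 1428203_at, gave 4438.6 units in the KO pool and 5917.0 units in the WT pool, 1.34-fold lower (-0.43). Probe sets 1429685_at, 1428204_at and 1428205_x_at went the other way. Probe set 1429685_at gave 4268.7 units in the KO pool and 2321.4 units in the WT pool, 1.82-fold higher (0.87). Probe set 1428204_at gave 3893.6 units in the KO pool and 2242.6 units in the WT pool (0.78), and 1428205_x_at, whose suffix marks probes that can bind several transcripts, 2986.8 units in the KO pool and 1763.5 units in the WT pool (0.75). Probe set 1450319_at had 89.2 units in the KO pool and 84.6 units in the WT pool (0.06). Thus 3 probe sets of Gabrb2, with 1763.5 units or more on both arrays, were at least 1.5-fold higher in the KO pool, while the brightest had a ratio below 0. Of the 5 probe sets, 1428203_at, 1428204_at and 1428205_x_at come from the same GenBank record, so they are not separate evidence of different transcripts.

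Gabrg3 encodes gamma3, a minor gamma subunit that can take the place at which benzodiazepines bind. Its only measured probe set, 1445846_at, gave 547.0 units in the KO pool and 143.8 units in the WT pool, 3.77-fold higher (1.92), the 42nd highest ratio of 12251 genes. Probe sets 1439717_at and 1444549_at reached the floor in the KO pool alone. The first of these had 163.0 units in the KO pool and 48.1 units in the WT pool, at least 2.52-fold higher, and the second had 128.3 units in the KO pool and 30.4 units in the WT pool, at least 1.98-fold higher. The bounds set the WT signal at the floor. Probe set 1422187_at, annotated to the RefSeq transcript record, had 29.5 units in the KO pool and 19.9 units in the WT pool, below the floor on both. Only 1 of these 4 probe sets was thus measured on both arrays. Another probe set bears on the gene. It is annotated with Gabrg3 and with 6330406O05Rik, which the RefSeq gene table lists as a synonym of Gabrg3, and so carries several symbols and falls outside the rule. That probe set, 1430101_at, gave 361.9 units in the KO pool and 303.2 units in the WT pool, only 1.18-fold higher (0.24). Counted as Gabrg3, a choice made after the data were seen, it would be the gene's brightest probe set, and the gene's ratio would be 0.24 in place of 1.92.

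Within the group, the probe sets other than the brightest all had a higher ratio than the brightest of their own gene. This held for 10 of 10 such probe sets, in 5 of 5 genes with several measured probe sets, by 0.09 to 2.37 log2 units with a median of 1.16. Over all genes, 51.3% of 8716 such probe sets had a ratio above that of their gene's brightest, with a median difference of 0.02. With quantile normalization it held for 9 of 10, the exception being 1450319_at of Gabrb2. A probe set above the brightest existed in 59.7% of all genes with several. In each of the 5 genes, at least 1 probe set lay 1 or more log2 units above the brightest, as in 17.3% of all 5375 genes with several measured probe sets. Other lists varied. A probe set above the brightest was present in 5 of 5 excitatory neuron markers with several (8 of 12 probe sets), 2 of 2 interneuron markers (3 of 3) and 7 of 8 astrocyte markers (9 of 17). Lower shares were found in the other GABA-A and rho subunits (0 of 1 gene, 0 of 1 probe set) and the GABA-B list (0 of 1, 0 of 2). The chloride list had 2 of 4 genes (3 of 8 probe sets) and the microglia markers 1 of 2 (1 of 4). The median spread between the highest and lowest probe set was 1.29 log2 units in these 5 genes and 0.61 over all such genes. Spread and shares by gene tend to rise with the number of probe sets, which was 2 to 5 in these genes. The comparison with all genes was not matched for that number or for gene length. All differences within a gene are taken from the same brightest probe set, so the 10 are not separate observations. The comparison was chosen after the values had been seen, 3 Gabrb2 probe sets share a record, and no test was made.

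**Figure D2:**
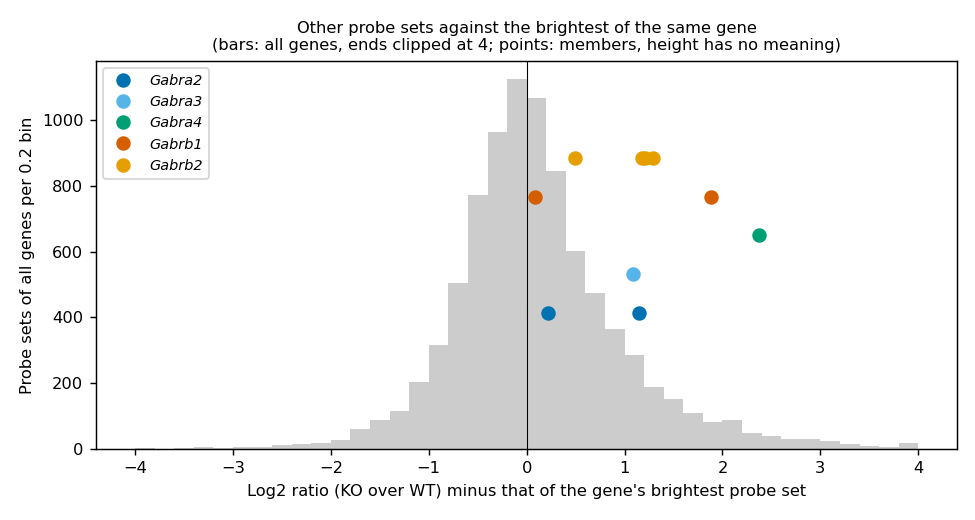
Difference in log2 ratio (KO over WT) between a probe set and the brightest probe set of the same gene, on the horizontal axis, for all genes (grey bars, number of probe sets per bin of 0.2, ends clipped at 4) and for the 5 subunit genes with several measured probe sets (points, height has no meaning). All 10 points lie right of 0, while the bars centre near 0, with a median of 0.02.

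Counted over probe sets instead of genes, 7 of 17 measured probe sets were at least 1.5-fold higher in the KO pool and 3 of 17 at least 1.5-fold lower, against 16.5% and 18.1% of all 20967 measured probe sets of 1 gene. The higher ones were 3 of Gabrb2 and 1 each of Gabra3, Gabra4, Gabrb1 and Gabrg3, and the lower ones were 2 of Gabra2 and 1 of Gabra5. With quantile normalization the counts were 6 and 3, the probe set of Gabra3 falling within 1.5-fold at 0.47. Signal level moves with this comparison. Among the dimmest 25% of measured probe sets, 20.7% were at least 1.5-fold higher in the KO pool, as was 1 of the 3 subunit probe sets there. Of the 9 subunit probe sets in the brightest 25%, 3 were higher and 2 were lower by that measure, against 10.8% and 17.1% of all probe sets of that brightness. No such share was calculated for the brightness range in between, where 1429330_at, 1443205_at and 1445846_at lie. After a loess fit of the ratio on signal, 1429330_at of Gabra4 had 2.08, 1443205_at of Gabrb1 2.14 and 1445846_at of Gabrg3 1.90. The median ratio of all probe sets was 0.05 in the dimmest 25% and -0.08 in the brightest 25%. A fit of that average trend could therefore change such ratios little, and the part of signal level in them was not tested.

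**Figure D3:**
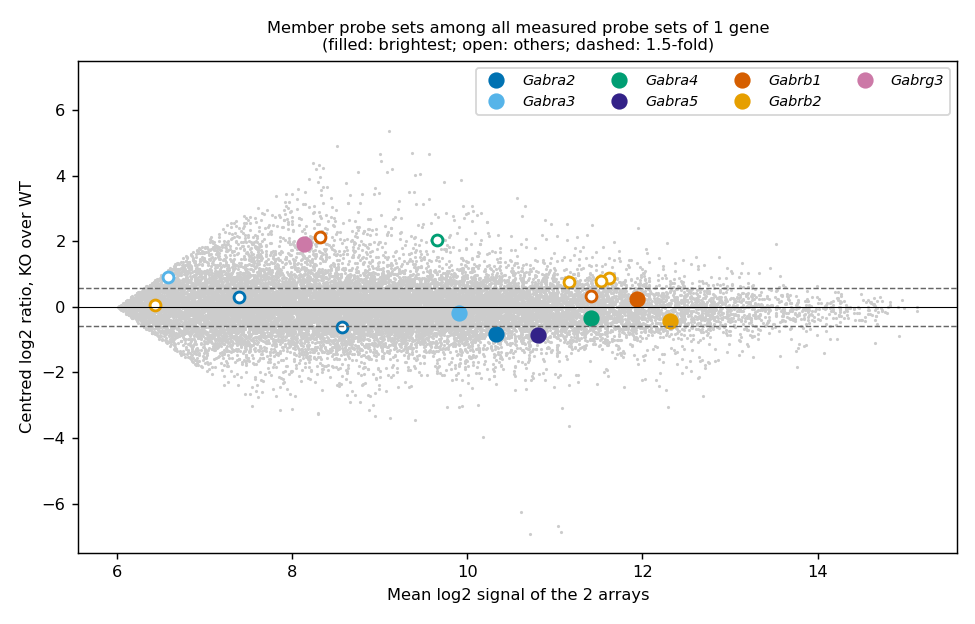
Centred log2 ratio of KO over WT against the mean log2 signal of the arrays for all 20967 measured probe sets of 1 gene (grey) and for the 17 of the subunit genes (coloured; filled circles are the brightest of a gene, open circles the others; dashed lines mark 1.5-fold). Gabrg3 and the open circles of Gabra4 and Gabrb1 lie near 2, and the filled circles of Gabra2 and Gabra5 lie below the lower dashed line.

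Gene length and nuclear RNA were also set beside the ratios. All 7 subunit genes fall in the longest 25% of measured genes by RefSeq gene length. Gabrg3 spans 671 kb and Gabrb1 492 kb. These longest genes had a median ratio of 0.03, with 15.8% of genes at least 1.5-fold higher and 15.1% at least 1.5-fold lower, while the shortest 25% had a median of -0.15, with 8.90% and 21.3%. All 6 nuclear noncoding RNAs listed were at least 1.5-fold higher in the KO pool, among them Rian at 4.81-fold and Miat at 2.57-fold. Of all genes, 12.5% were. Their summed signal was 46701 units in the KO pool and 27482 units in the WT pool. The part of length or of nuclear RNA in the subunit values was not tested.

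Other subunits of the family gave low signals or ratios near equality. Of 8 other GABA-A and rho subunit genes analysed, 2 were measured and both lay within 1.5-fold. Gabrd, the gene of the delta subunit that joins alpha4 outside synapses, had 965.8 units in the KO pool and 1053.9 units in the WT pool (-0.14). Gabrg1, of a gamma subunit and a neighbour of Gabra2, had 626.4 units in the KO pool and 761.6 units in the WT pool (-0.29), and its other probe set gave -0.39. Gabra6, known from cerebellar granule cells, was below the floor on both arrays with 54.3 units in the KO pool and 51.1 units in the WT pool. Gabre and Gabrp reached the floor in the KO pool alone and Gabrr2 in the WT pool alone, each at no more than 107.3 units.

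Genes that make, load, take up and break down GABA lay mostly within 1.5-fold, with a median of 0.27. Of the 9 genes, 1 was past 1.5-fold upwards and 0 downwards, against 12.5% and 18.3% of all genes. Gad1 and Gad2 encode the enzymes that make GABA from glutamate. Gad1 had 15790 units in the KO pool and 13914 units in the WT pool (0.17). Gad2 had 2862.9 units in the KO pool and 2731.8 units in the WT pool (0.06), although its other probe set had a ratio of 2.01. Slc32a1, the vesicular GABA transporter gene, had 0.27. The highest was Aldh5a1, of the last step of GABA breakdown, at 0.69. Slc38a1, a glutamine transporter gene, had 0.55 by its brightest probe set and 3.30 by its other one. So probe sets of Gad2 and Slc38a1 were also far apart, though only 2 of the 4 other probe sets in this list lay above the brightest.

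Genes of receptor clustering and trafficking had a median of -0.08 over 20 measured genes, of which 3 were past 1.5-fold downwards in the KO pool and 0 upwards, against 18.3% and 12.5% of all genes. Gphn, the gene of the scaffold gephyrin that holds these receptors at synapses, had 2158.5 units in the KO pool and 2570.3 units in the WT pool (-0.26), with its probe sets between -0.34 and 0.21. The lowest were Kif5a, a kinesin motor gene, at -0.98, Plcl2, a phospholipase-like gene, at -0.96, and Gabarap, of a protein that binds gamma subunits, at -0.88. The highest were Slitrk3, of a synaptic adhesion protein, at 0.50, Iqsec3 at 0.46 and Nlgn2, the adhesion molecule of inhibitory synapses, at 0.44. In this list 7 of 15 other probe sets lay above the brightest of their gene.

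The chloride transporters that set the direction of GABA-A currents differed from each other. Slc12a2 (NKCC1), which brings chloride into neurons, had 4104.8 units in the KO pool and 2292.1 units in the WT pool, 1.78-fold higher (0.83), and its other probe set gave 0.91. Slc12a5 (KCC2), which extrudes chloride, had 16982 units in the KO pool and 17092 units in the WT pool (-0.02), with its other probe set at -0.44. Clcn3, a chloride and proton exchanger gene, was 1.62-fold higher in the KO pool, with its 5 probe sets between 0.23 and 1.70. The median of the 6 genes in this list was 0.32. Of them, 2 were past 1.5-fold upwards and 0 downwards, against 12.5% and 18.3% of all genes.

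GABA-B and glycine receptor genes had few measured members. All 4 genes of the GABA-B list lay within 1.5-fold, with a median of 0.02. Gabbr1, a GABA-B receptor subunit gene, had 0.31 by its brightest probe set, while its lowest was -0.66. Of 3 measured glycine receptor genes, Glra3 and Glra2 were at least 1.5-fold lower in the KO pool, at -0.86 and -0.64, and Glrb, of the beta subunit that also binds gephyrin, had -0.17. Their median was -0.64. Of all genes, 12.5% were at least 1.5-fold higher and 18.3% at least 1.5-fold lower in the KO pool.

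**Figure D4:**
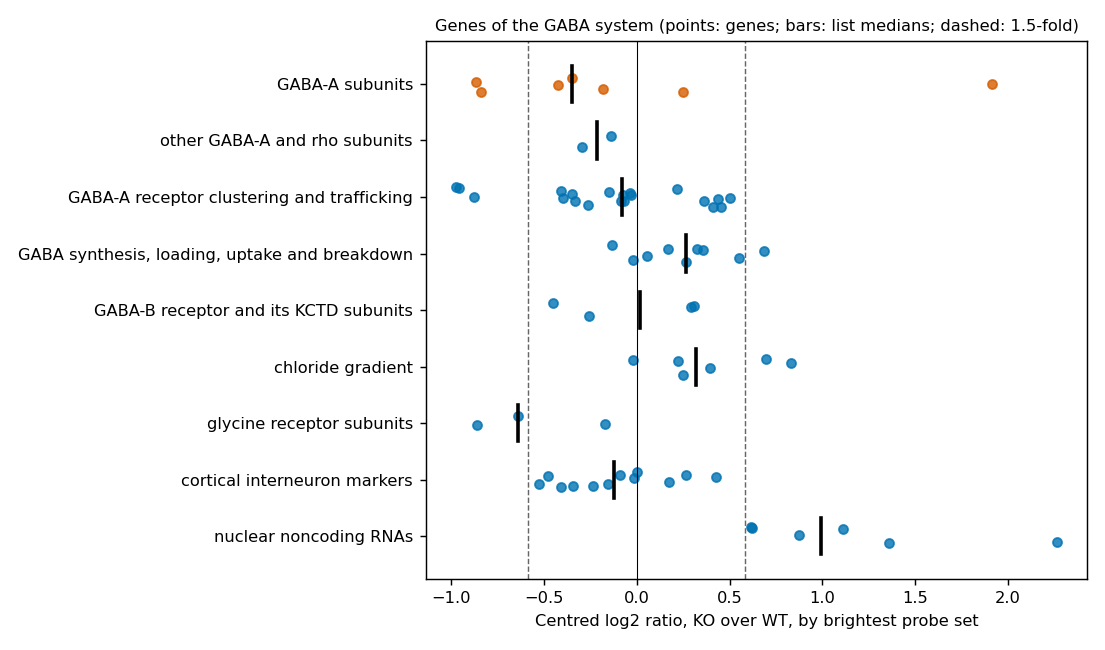
Centred log2 ratio (KO over WT, horizontal axis) by brightest probe set for the measured genes of each list; points are genes, black bars list medians and dashed lines 1.5-fold. The subunit genes in orange spread from -0.86 to 1.92, all interneuron markers lie between the dashed lines, and all nuclear noncoding RNAs lie to their right.

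Markers of the cells and regions that carry these receptors were set beside the values. All 12 interneuron markers lay within 1.5-fold, with a median of -0.12 and summed signals of 36988 units in the KO pool and 39291 units in the WT pool. Of 9 excitatory neuron markers, 2 passed 1.5-fold upwards and 2 downwards, against 12.5% and 18.3% of all genes. Tbr1 at 1.06 and Neurod6 at -1.61 were the extremes, and the summed signals were 22562 units in the KO pool and 21662 units in the WT pool. Of 10 markers shared by neurons, 2 were lower and 0 higher, Nefm at -2.24 and Nefl at -1.78. Their summed signals were 88276 units in the KO pool and 109968 units in the WT pool. Fewer cells of a type and less RNA per cell cannot be told apart in pooled tissue.

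Regional markers bear on Gabra4 and Gabra5, whose known levels differ between brain regions. The counts below stand beside 12.5% of all genes at least 1.5-fold higher and 18.3% at least 1.5-fold lower in the KO pool. Of 4 measured thalamus markers, 2 were at least 1.5-fold higher in the KO pool and 0 lower, with Zic1 at 1.54 and Tcf7l2 at 0.74, while Slc17a6 had -0.12 and Prkcd -0.21. The summed signals over 6 thalamus markers were 4472 units in the KO pool and 2712.7 units in the WT pool, of which Zic1 made up 2604.9 units in the KO pool and 887.5 units in the WT pool. Of 8 hippocampus markers, Prox1 was higher, at 1.39, and Dsp and C1ql2 were lower, at -1.10 and -0.78, with summed signals of 5718.6 units in the KO pool and 4919.1 units in the WT pool. Of 5 striatum markers 3 were lower, with Ppp1r1b lowest at -0.73, and the sums were 4711.5 units in the KO pool and 7021.3 units in the WT pool. Gh, the growth hormone gene of the pituitary, had 200 units in the KO pool and 23223 units in the WT pool, Pomc was 7.99-fold lower and Prl at least 36.9-fold lower in the KO pool. Among glial and vascular markers, 4 of 8 astrocyte, 4 of 7 microglia, 1 of 5 oligodendrocyte and 0 of 3 endothelium markers were at least 1.5-fold lower in the KO pool, and 1 microglia marker was higher, Cx3cr1 at 1.97. The part of regional, glial or pituitary makeup in the subunit values was not tested.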

How the data were processed

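Cortical RNA of 2 pools, 1 per genotype, was measured on Affymetrix arrays with 45101 probe sets. The authors deposited an intensity on a linear scale for every probe set. The submitters' processing notes name GCOS, Affymetrix's operating software, with no version. How it summarised the probes was not given in the sources used here. Each array's mean after trimming 2% at either end was 500.0 units, so both had been scaled before deposit. Per the labels' protocols, 5 micrograms of total RNA per pool went into biotin labelling.

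The floor was the 40th percentile of non-control signals. Log2 ratios were centred by subtracting 0.01, their median over the 23928 probe sets at the floor on both arrays. Of 45037 non-control probe sets, 34945 had 1 symbol, 932 several and 9160 none; 34741 took the RefSeq symbol (GRCm38.p6). A gene was read by its brightest measured probe set. The precision is limited by 1 array per group, and no p-value was calculated. Genes named were the 7 members, fixed landmark genes (Gad1, Gad2, Slc32a1, Gphn, Slc12a2, Slc12a5, Gh, Prl, Pomc, Gnmt) and up to 3 genes at either end of each list; Xist, Gabra6, Gabbr1, Glrb, Gabre, Gabrp and Gabrr2, and any other gene outside this rule, were added after their values were seen. Members and lists were chosen with earlier results of these data known. No gene was named for likeness of pattern, because 2 arrays give each gene 1 difference. The calculation was tested on simulated data. Alternatives covered floor, scaling and choice of probe set. Python 3.11.15, numpy 2.4.6, pandas 2.3.3, statsmodels 0.14.6 and matplotlib 3.10.9 were used.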

Additional observations from a re-analysis of the deposited data

Results flagged for a closer look

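The probe set 1430101_at, which names Gabrg3 together with a synonym and was not used for the gene values, gave a signal above the floor on both arrays, 361.9 units in the KO pool and 303.2 units in the WT pool. It drew attention as a signal outside the main measurement that was higher in the KO pool. Its log2 ratio of 0.24 stands beside 1.92 for the measured probe set that carries Gabrg3 alone.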

How the results depend on the processing

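The number of subunit genes at least 1.5-fold higher in the KO pool, 1 by brightest probe sets, was 0 with the floor at the 60th percentile, where Gabrg3 had no measured probe set. It was 3 by the median of a gene's probe sets, 3 by second brightest probe sets, which exist for 5 of the genes, and 0 with 1430101_at counted as Gabrg3, an alternative chosen after seeing the data. Of all genes, 12.5% were that much higher by brightest probe sets, 12.6% by the median and 19.4% by second brightest probe sets. With the floor at the 60th percentile the share was 13.0%. The number at least 1.5-fold lower, 2, was 1 by second brightest probe sets, since Gabra5 has none. Of all genes, 18.3% were that much lower by brightest and 19.1% by second brightest probe sets. The median ratio of the genes, -0.35, was 0.36 by the median of probe sets and 0.87 by second brightest probe sets, so its sign depends on which probe set stands for a gene. The median over all genes was -0.04 by the median of probe sets and -0.01 by second brightest probe sets. Under the 25th percentile floor, no floor, no centring, quantile normalization, loess and suffixed probe sets left out, the counts of 1 and 2 were the same and the median stayed between -0.45 and -0.27. Under those settings, 10.6% to 17.4% of all genes were at least 1.5-fold higher and 17.5% to 27.2% at least 1.5-fold lower. The ratios of Gabrg3 (1.92), Gabra2 (-0.84) and Gabra5 (-0.86) had the same sign under every setting that gave them a value. Of the probe sets other than the brightest, 11 of 12 lay above the brightest of their gene with the floor at the 25th percentile, 6 of 6 at the 60th and 13 of 16 without a floor. The median of the GABA-B list, 0.02, was -0.41 with quantile normalization; the cause was not tested. No paired analysis was possible because there was 1 array per genotype. Signals near the floor, such as those of 1421263_at and 1450319_at, limit what can be read from the dim probe sets.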

Other observations

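Probe sets 1420299_at and 1449807_x_at of Gabra2 were annotated to the same GenBank record and gave opposite values at the bottom of the signal range. Probe set 1420299_at had 1.7 units in the KO pool and 21.6 units in the WT pool, below the floor on both arrays. Probe set 1449807_x_at had 92.1 units in the KO pool and 1.7 units in the WT pool, at least 1.42-fold higher in the KO pool with the WT signal set at the floor.

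Of the 23 subunit probe sets, 5 were annotated to RefSeq transcript records, 1 each for Gabra2, Gabra3, Gabrb1, Gabrb2 and Gabrg3. That of Gabrb1 was the gene's brightest, while those of the other 4 genes were under 200 units on both arrays.

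Wide gaps between probe sets of 1 gene also occurred outside the GABA system, in neuronal and other genes. The median spread over 5375 genes with several measured probe sets was 0.61 log2 units. Syt1, the calcium sensor of synaptic vesicles, had ratios between -0.42 and 2.44 over 4 probe sets, and Map2, a microtubule protein of dendrites, between -2.12 and 2.38 over 3. Rorb, a layer IV transcription factor, had -0.13 by its brightest probe set and up to 3.16 by another. The astrocyte marker Slc1a2 lay between -0.33 and 3.88, and the nuclear noncoding RNA Malat1 between 0.87 and 4.23.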
